A study of Homo sapiens with 9 samples.

Results

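FGF7 and 9 further genes of fibroblast growth factor signalling were followed in human adipose-derived stem cells treated with the Rab7 inhibitor CID-1067700. The 10 genes were 7 ligands, FGF7, FGF10, FGF1, FGF2, FGF5, FGF9 and FGF18, and 3 receptors, FGFR1, FGFR2 and FGFR3. Each was read from its 1 probe set, found by the gene symbol of the array platform, among 21448 probe sets, of which 17709 carried a symbol. FGF7 was chosen by its measured log2 difference between CID-treated and control arrays of this same data set, so its values in those arrays are given as a description without a test. The other members are the family genes taken along with it.

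Fibroblast growth factors are secreted proteins that bind receptor tyrosine kinases together with heparan sulfate on the cell surface, and the activated receptor signals through adaptor proteins, RAS and the ERK kinases. FGF7, also called keratinocyte growth factor, is made by fibroblasts and other stromal cells and acts on epithelial cells, which carry the IIIb splice form of FGFR2. FGF10 is its closest relative and uses the same receptor form, while FGF1 and FGF2 act broadly and FGFR1 is the main receptor of mesenchymal cells. After binding, receptors are taken into endosomes, and Rab7 is a small GTPase of the step from late endosome to lysosome.

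The cells were ASC52telo, 1 immortalised adipose-derived line, held for 10 days in keratinocyte differentiation medium on rat collagen I. This medium was EpiLife with the EDGS growth supplement, BMP-4, EGF, hydrocortisone, ascorbic acid 2-phosphate and all-trans retinoic acid, and all 3 groups received it. The groups were medium with 40 μM CID-1067700 (CID), medium with 0.1% DMSO as the vehicle (DMSO) and medium alone (DM), with 3 arrays each. The labels number the arrays as replicates without saying whether they came from separate cultures, so the p-values speak only to the scatter among these arrays.

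Values are log2 signals normalised by robust multi-array averaging (RMA), on which a difference of 1 is a doubling. Probe sets differ in how brightly they hybridise, so each gene was compared only with itself across arrays. Differences between groups came from a limma model over all 9 arrays, and a gene was called when its p, adjusted by the Benjamini-Hochberg method over all 21448 probe sets, was under 0.05 and its fold change at least 1.5. The array medians lay between 7.06 and 7.14, and arrays of the same group correlated at 0.994 to 0.995. KRT5 and KRT14, keratins of basal keratinocytes, averaged 4.17 and 3.73 in CID, 4.32 and 3.58 in DMSO and 4.51 and 3.50 in DM, all below 5.40, the dim level, under which lay the 7149 probe sets with the lowest means of the 21448. VIM, the intermediate filament of mesenchymal cells, lay between 16.67 and 16.88 on all 9 arrays. RAB7A, the gene of the inhibitor's target, averaged 16.35 in CID, 16.28 in DMSO and 16.20 in DM, with 0.15 between CID and DM (limma adjusted p = 0.613).

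FGF7 was lower in CID cells than in either control. Its log2 values were 13.42, 13.66 and 13.51 in CID, 14.68, 14.80 and 14.87 in DMSO, and 14.79, 14.97 and 14.76 in DM. The groups did not overlap: the highest CID array lay 1.02 below the lowest of the 6 control arrays, which themselves spanned 0.29. The means were 13.53 ± 0.12 in CID, 14.78 ± 0.096 in DMSO and 14.84 ± 0.11 in DM (SD, n = 3 each). FGF7 in CID was 2.48-fold lower than in DM, a log2 difference of -1.31 (SE 0.12, 95% interval -1.58 to -1.04), which left 40.3% of the DM signal. Against DMSO it was 2.38-fold lower, a log2 difference of -1.25 (95% interval -1.52 to -0.99), which left 41.9% of the DMSO signal. Both comparisons use the same CID arrays, by which FGF7 was chosen, so the intervals describe scatter and are no test. Choosing a gene by its difference can also make that difference look larger. Ordered over all probe sets from the largest decrease, FGF7 stood at place 66 against DM and at place 98 against DMSO. DMSO and DM overlapped for FGF7, with a difference of -0.06 (95% interval -0.32 to 0.21, limma adjusted p = 0.950).

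The promoters of FGF7, which heads the set, and of FGF10, its closest relative, are printed below. Whether these sequences bear on the values of either gene was not tested. Each is the 250 bases before the RefSeq start site in GRCh38.p14, FGF7 at chr15:49422992-49423241 on the plus strand and FGF10 at chr5:44389421-44389670 on the minus strand, with CpG dinucleotides in capitals.
FGF7: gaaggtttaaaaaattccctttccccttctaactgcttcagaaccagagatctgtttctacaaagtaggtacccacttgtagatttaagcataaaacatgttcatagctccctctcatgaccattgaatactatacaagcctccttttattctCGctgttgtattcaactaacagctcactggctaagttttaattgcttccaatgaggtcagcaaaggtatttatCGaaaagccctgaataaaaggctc
FGF10: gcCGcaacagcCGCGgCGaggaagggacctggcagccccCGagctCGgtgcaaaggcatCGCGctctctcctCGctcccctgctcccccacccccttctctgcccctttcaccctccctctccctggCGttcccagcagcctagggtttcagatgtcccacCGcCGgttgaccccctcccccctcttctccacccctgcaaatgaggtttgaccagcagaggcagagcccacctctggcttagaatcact

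The FGF7 window was 38.4% G and C with 2 CpG, and the FGF10 window 65.6% with 12 CpG. Over all 35116 RefSeq windows of this length the medians were 58.0% and 11 CpG, and 22.9% of windows had no more CpG than that of FGF7, against 53.4% for FGF10. Neither window held any of 6 motifs searched on both strands with overlaps between motifs allowed. These were the TATA box TATAAA (in 10.7% of all windows), the AP-1 site TGANTCA (6.57%), the cyclic AMP response element TGACGTCA (1.65%), the GC box GGGCGG (42.6%), the E-box CACGTG (6.34%) and the antioxidant response element core TGACNNNGC (10.9%). RefSeq also lists 8 FGF7 pseudogene copies, 6 of them on chromosome 9, and whether the FGF7 probes hybridise to their transcripts was not tested.

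**Figure D1:**
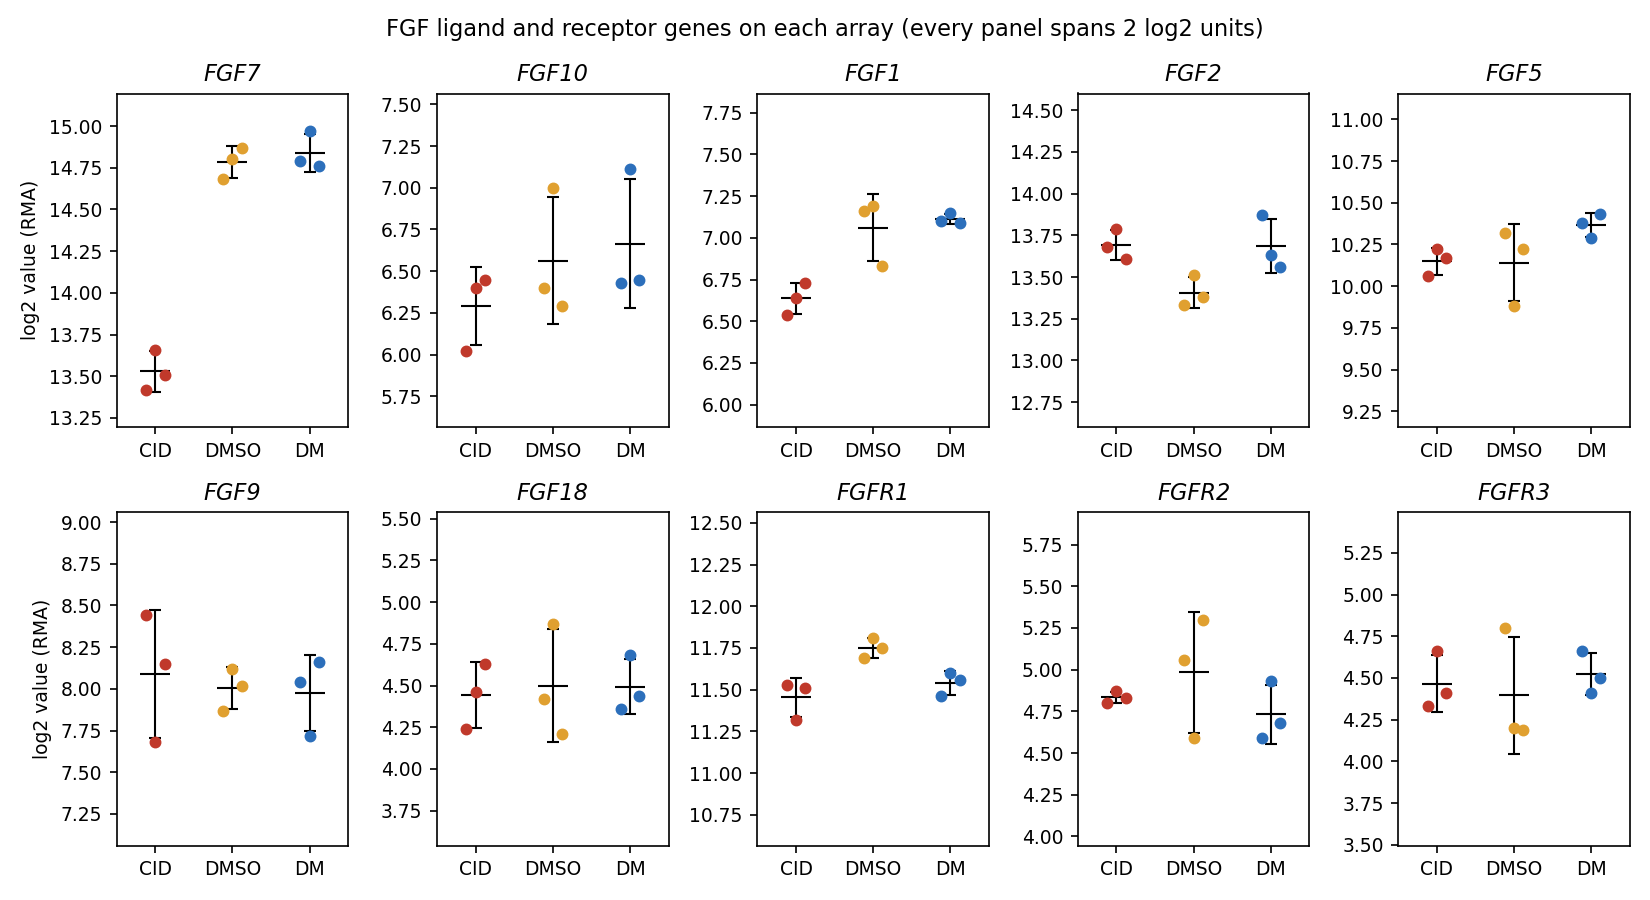
Log2 RMA value of each of the 10 genes on every array, with CID left of DMSO and DM in each panel; points are arrays and bars group means. The 3 CID arrays of FGF7 sit between 13.42 and 13.66, below all 6 control arrays, which lie between 14.68 and 14.97.

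FGF10, which acts through the same epithelial receptor form as FGF7, spread widely within the groups. Its values were 6.02, 6.40 and 6.45 in CID, 6.40, 7.0 and 6.29 in DMSO, and 6.43, 7.11 and 6.45 in DM. The groups overlapped, with 1 high array in each of the controls. The difference was -0.37 against DM (95% interval -0.88 to 0.14, limma adjusted p = 0.552) and -0.27 against DMSO (limma adjusted p = 0.636).

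FGF1, a ligand able to bind all FGF receptors, was the only other member whose CID arrays all lay below all 6 control arrays. Its values were 6.54, 6.64 and 6.73 in CID, 7.16, 7.19 and 6.83 in DMSO, and 7.10, 7.15 and 7.09 in DM. The gap to the lowest control array, in DMSO, was 0.10, narrow beside that of FGF7. FGF1 was not called, with a difference of -0.48 against DM (SE 0.13, 95% interval -0.76 to -0.20, limma adjusted p = 0.111) and of -0.42 against DMSO (SE 0.13, limma adjusted p = 0.125). It was called under none of the alternative settings, where its adjusted p lay between 0.0585 and 0.295 against DM.

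FGF2, a widely expressed mitogen of stromal cells, differed least between CID and DM. Its values were 13.68, 13.79 and 13.61 in CID, 13.33, 13.51 and 13.38 in DMSO, and 13.87, 13.63 and 13.56 in DM. The 3 DMSO arrays lay below both other groups, which overlapped. The difference was 0.01 against DM (95% interval -0.27 to 0.28, limma adjusted p = 0.990), 0.29 against DMSO (limma adjusted p = 0.304) and -0.28 between DMSO and DM (limma adjusted p = 0.701).

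FGF5, a ligand known as a regulator of the hair cycle, was lower in all CID arrays than in DM but not than in DMSO. Its values were 10.06, 10.22 and 10.17 in CID, 10.32, 9.88 and 10.22 in DMSO, and 10.38, 10.29 and 10.43 in DM. The difference was -0.22 against DM (limma adjusted p = 0.553) and 0.01 against DMSO (limma adjusted p = 0.984).

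FGF9 and FGF18, ligands that in development act mainly on mesenchymal receptors, overlapped in every comparison. FGF9 was 8.44, 7.68 and 8.15 in CID, 7.87, 8.12 and 8.02 in DMSO, and 8.04, 7.72 and 8.16 in DM. Its difference was 0.12 against DM (limma adjusted p = 0.856), smaller than the SD of 0.38 among the CID arrays. FGF18 lay between 4.21 and 4.87 on the 9 arrays, below the dim level of 5.40, and differed by -0.05 between CID and DM (limma adjusted p = 0.941).

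FGFR1, the receptor of mesenchymal cells, was the 1 receptor member above the dim level. Its values were 11.53, 11.32 and 11.51 in CID, 11.69, 11.81 and 11.75 in DMSO, and 11.46, 11.60 and 11.56 in DM. CID lay below DMSO without overlap, while CID and DM overlapped and DMSO lay above DM. The difference was -0.09 against DM (95% interval -0.34 to 0.16, limma adjusted p = 0.807), -0.30 against DMSO (95% interval -0.55 to -0.05, limma adjusted p = 0.235) and 0.21 between DMSO and DM (limma adjusted p = 0.763).

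FGFR2, the receptor of FGF7 in its epithelial form, and FGFR3 were both dim. FGFR2 was 4.80, 4.87 and 4.83 in CID, 5.06, 4.59 and 5.30 in DMSO, and 4.59, 4.93 and 4.68 in DM. Its difference was 0.10 against DM (95% interval -0.28 to 0.48, limma adjusted p = 0.865), and its 1 probe set gives a single value for both splice forms. ESRP1, the epithelial splicing factor that favours the IIIb form, lay between 3.14 and 4.17. FGFR3 lay between 4.19 and 4.80 and differed by -0.06 between CID and DM (limma adjusted p = 0.932).

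The other 9 members together had 0 calls in limma in any of the 3 comparisons. Over all probe sets, 1.35% were called for CID against DM, 2.41% for CID against DMSO and 0.00466% for DMSO against DM, so a count of 0 among 9 genes is near the background. At an unadjusted p under 0.05, 1 of the 9 passed for CID against DM (12.6% of all probe sets), 3 for CID against DMSO (15.2%) and 1 for DMSO against DM (6.98%). The methods' t-test also called 0 of them. It is the independent samples test of the paper's general statistics section, applied here to the array values. The paper called its array genes by fold change and false discovery rate in Transcriptome Analysis Console. Counts from the former test are therefore not those of the paper's array analysis. CID arrays did not overlap DM arrays in FGF1 and FGF5 (17.9% of all probe sets), nor DMSO arrays in FGF1, FGF2 and FGFR1 (21.4%), while DMSO and DM did not overlap in FGF2 and FGFR1 (11.8%). Their median difference was -0.06 in both CID comparisons, against 0.01 over all probe sets for DM and 0.02 for DMSO. Of the 10 members 7 lay above the dim level, and all 10 were kept in the fit. The SD over the 9 arrays was 0.65 for FGF7 and between 0.15 and 0.34 for the others.

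**Figure D2:**
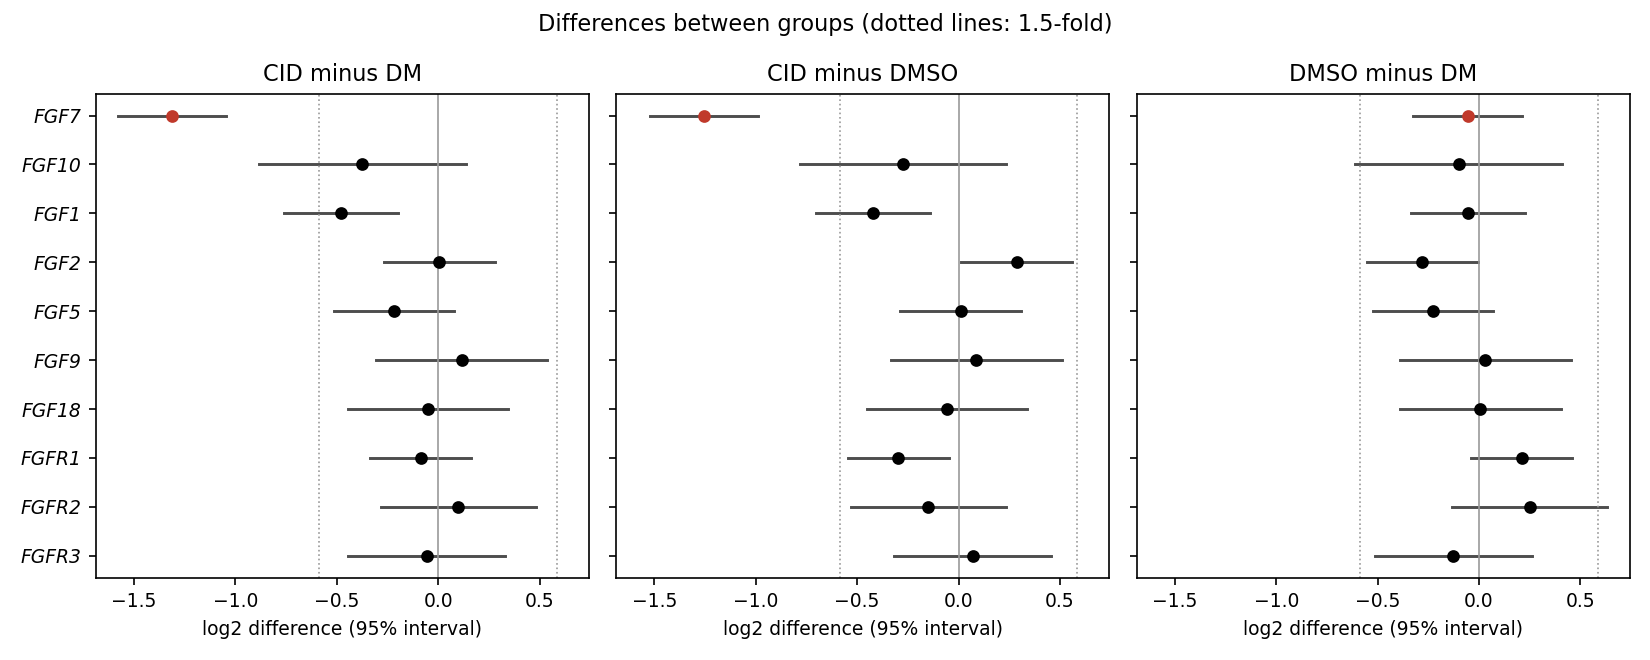
Log2 difference of each gene for CID minus DM, CID minus DMSO and DMSO minus DM, with 95% intervals from limma; dotted lines mark a 1.5-fold change. FGF7, at -1.31 against DM and -1.25 against DMSO, is drawn there as a description of the gene chosen by these differences, and the other 9 members lie between -0.48 and 0.12 against DM and between -0.42 and 0.29 against DMSO.

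Of 11 mesenchymal stromal markers, 1 was called lower in CID against DM and 5 against DMSO. Over all probe sets, 1.35% were called against DM and 2.41% against DMSO. The mean over the 11 genes was 13.8 to 13.9 in CID, 14.2 to 14.3 in DMSO and 14.2 in DM arrays. COL1A1, a chain of type I collagen, was called against DM (log2 difference -1.14, limma adjusted p = 0.00686). The calls against DMSO were COL1A1, COL1A2, LUM, DCN and PDGFRB. That of COL1A2 ended without any 1 of the CID or DMSO arrays (limma adjusted p up to 0.119), and with the methods' t-test only that of DCN was kept. The median over the 11 was -0.29 against DM and -0.34 against DMSO. Without overlap, 7 lay lower against DM and 8 against DMSO, and 1 lay higher in each. Over all 21448 probe sets, 1978 lay lower and 1862 higher without overlap against DM, and 2304 and 2282 against DMSO. Not every marker was lower in CID. THY1, a surface glycoprotein, was 12.92, 12.90 and 12.91 in CID, 12.45, 12.75 and 12.18 in DMSO, and 12.14, 12.72 and 12.70 in DM. Its CID arrays lay above both controls without overlap, by 0.39 against DM (limma adjusted p = 0.416) and 0.45 against DMSO (limma adjusted p = 0.271). ENG differed by -0.04 against DM and 0.10 against DMSO, and S100A4 by -0.29 against DM and 0.14 against DMSO. VIM differed by -0.06 against DM (limma adjusted p = 0.856). The adipocyte markers, 5 genes, averaged 5.73 to 6.02 in CID, 5.61 to 5.82 in DMSO and 5.56 to 5.58 in DM, and 0 were called. Their differences lay between -0.24 and 1.04 against DM and between -0.50 and 0.62 against DMSO. At an unadjusted limma p under 0.05, 2 were higher and 0 lower against DM (12.6% of all probe sets passed). Against DMSO, 2 were higher and 1 lower (15.2%). The endothelial markers averaged 5.51 to 5.64 in CID, 5.67 to 5.81 in DMSO and 5.71 to 5.82 in DM, with 0 called. The leukocyte markers averaged 6.59 to 6.78 in CID, 6.65 to 6.73 in DMSO and 6.52 to 6.84 in DM, with 0 called. The keratinocyte markers, 14 genes, averaged 4.83 to 4.92 in CID, 4.75 to 4.93 in DMSO and 4.78 to 5.00 in DM, with 11 below the dim level. The part of these markers in the FGF7 difference was not tested, and in bulk RNA fewer cells of a type and less RNA per cell cannot be told apart.

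Of all probe sets, 1.35% were called against DM and 2.41% against DMSO, the shares to set beside the counts in the lists below. Of 14 further FGF ligands, 1 was called, FGF8, a ligand of embryonic patterning. Its values were 11.34, 11.13 and 10.93 in CID, 12.17, 11.87 and 11.84 in DMSO, and 12.17, 11.67 and 11.94 in DM, with no overlap. FGF8 fell by 0.79 on the log2 scale against DM (limma adjusted p = 0.0432) and by 0.83 against DMSO (limma adjusted p = 0.0244). The median over the 14 was 0.03 against DM and 0.08 against DMSO. The remaining receptors and co-receptors gave 0 calls of 4, with FGFR4 at -0.07 and FGFRL1, a receptor without a kinase domain, at 0.24 against DM. The FGF carriers and receptor partners gave 0 of 9.

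Heparan sulfate, the sugar chain that FGF7 needs to bind its receptor, is built by a set of enzymes and carried by core proteins. HS6ST1, which adds sulfate at position 6 of the chain's glucosamine, was 10.05, 10.03 and 10.17 in CID, 11.16, 11.05 and 11.16 in DMSO, and 10.90, 10.62 and 11.15 in DM. It fell by 0.81 against DM (limma adjusted p = 0.0196) and by 1.04 against DMSO (limma adjusted p = 0.00346), as the 1 call among 20 enzymes. SDC2, a syndecan core protein, was 12.19, 12.25 and 12.25 in CID, 12.78, 13.19 and 13.08 in DMSO, and 12.88, 12.73 and 12.76 in DM. It fell by 0.79 against DMSO (limma adjusted p = 0.00907) and differed by -0.56 against DM (limma adjusted p = 0.0668), the 1 call among 14 core proteins. The median against DM was 0.01 over the enzymes and 0.19 over the core proteins.

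The adaptors and kinases between receptor and nucleus gave 0 calls of 20 in both comparisons, with a further 8 not analysed here. Their differences lay between -0.22 and 0.29 against DM and between -0.25 and 0.27 against DMSO.

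Of 15 feedback inhibitors, SPRY1, a Sprouty protein that restrains receptor tyrosine kinase signalling, was called. Its values were 11.93, 11.81 and 11.72 in CID, 12.43, 12.78 and 12.46 in DMSO, and 12.88, 12.59 and 12.58 in DM, with no overlap. SPRY1 fell by 0.86 against DM (limma adjusted p = 0.0136) and by 0.74 against DMSO (limma adjusted p = 0.0198). Of the usual readouts of FGF signalling in this list, none of DUSP6, SPRY2 and SPRY4 was called. DUSP6, the ERK phosphatase, differed by 0.33 against DM (limma adjusted p = 0.608), SPRY2 by -0.16 and SPRY4 by -0.36 (limma adjusted p = 0.436). The median of the 15 was -0.10 against DM and -0.11 against DMSO.

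Among 18 transcription targets of FGF and ERK, EGR3, a zinc finger factor induced early after growth factor stimulation, was called in both comparisons. Its values were 8.91, 9.24 and 8.76 in CID, 9.83, 10.29 and 10.19 in DMSO, and 9.85, 10.39 and 9.73 in DM. EGR3 fell by 1.02 against DM (limma adjusted p = 0.0323) and by 1.13 against DMSO (limma adjusted p = 0.0134). FOSL1, an AP-1 subunit, was 12.49, 12.41 and 12.90 in CID, 11.48, 11.43 and 11.38 in DMSO, and 11.88, 12.22 and 12.21 in DM. It was higher by 1.17 against DMSO (limma adjusted p = 0.00279) and differed by 0.50 against DM (limma adjusted p = 0.178). DMSO itself lay below DM without overlap for FOSL1, with a log2 difference of -0.67 (limma adjusted p = 0.499). CCND1, the G1 cyclin, differed by 0.54 against DM (limma adjusted p = 0.0493) and by 0.53 against DMSO (limma adjusted p = 0.0344), under the fold threshold. ETV4 and ETV5, factors usually induced by FGF, differed by -0.43 and 0.05 against DM. Against DMSO they differed by -0.19 and 0.68 (limma adjusted p = 0.0591 for ETV5). ETV5 averaged 11.56 in CID, 10.88 in DMSO and 11.51 in DM. Its DMSO arrays lay below DM without overlap, with a log2 difference of -0.63 (limma adjusted p = 0.555). ETV5 against DMSO was called with only the arrays of CID and DMSO, with a trended and robust prior, without dim probe sets, and without DM 1 or DM 2, and its adjusted p in limma and the other alternatives lay between 0.00976 and 0.181. The median over the 18 was -0.17 against DM and -0.03 against DMSO.

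Of 15 stromal growth factors that act on epithelium, NRG1, a ligand of the ERBB receptors, was called. Its values were 10.16, 10.43 and 9.79 in CID, 11.47, 12.18 and 11.14 in DMSO, and 11.56, 12.24 and 11.50 in DM. NRG1 fell by 1.64 against DM (limma adjusted p = 0.0173) and by 1.47 against DMSO (limma adjusted p = 0.0198). HGF, another stromal growth factor that acts on keratinocytes, was 10.54, 10.80 and 10.59 in CID, 10.71, 11.20 and 10.83 in DMSO, and 11.02, 10.94 and 10.85 in DM. It differed by -0.29 against DM (limma adjusted p = 0.448) and by -0.27 against DMSO (limma adjusted p = 0.427). The median over the 15 was -0.14 against DM and -0.22 against DMSO. Without overlap, 6 of the 15 lay lower and 1 higher against DM, and 3 lower and 3 higher against DMSO. Of all 21448 probe sets, 1978 lay lower and 1862 higher in this way against DM, and 2304 and 2282 against DMSO.

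**Figure D3:**
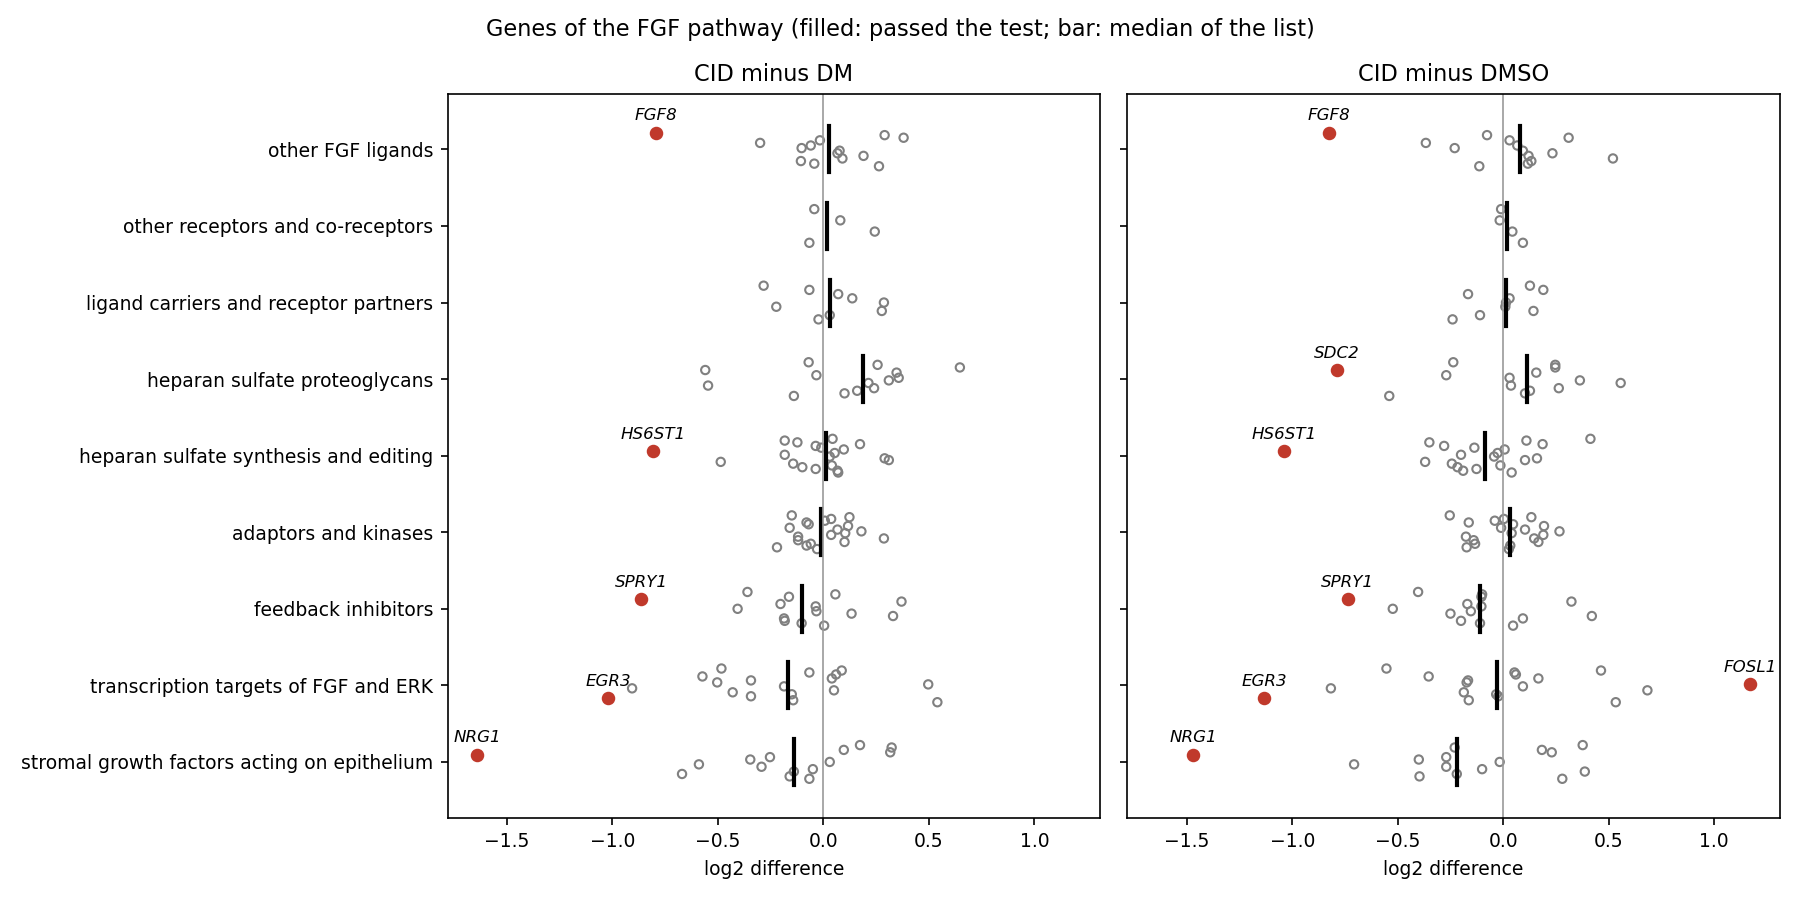
Log2 difference of the measured genes in the signalling lists for CID against DM and CID against DMSO, each point a gene, with the called genes named. FGF8, SPRY1, EGR3, NRG1 and HS6ST1 lie below 0 in both comparisons, and FOSL1 lies above it, at 1.17 against DMSO.

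Several of these calls ended when 1 array was left out, named here by group and replicate number. Leaving out an array also lowers the power of the test. Over all probe sets, the 289 calls against DM became 137 to 284. The differences against DM kept their sign, between -0.92 and -0.67 for FGF8 and between -0.94 and -0.68 for HS6ST1. Leaving out 1 array ended the call against DM for FGF8 (without CID 1, 2 or 3, DMSO 2 or 3, or DM 1 or 3, adjusted p up to 0.145), SPRY1 (without CID 2 or 3 or DM 1, up to 0.0609), EGR3 (without CID 1 or 3, DMSO 3, or DM 1 or 2, up to 0.120), NRG1 (without CID 1 or 3, or DM 1 or 2, up to 0.0720) and HS6ST1 (without CID 1, 2 or 3, or DM 1 or 3, up to 0.0781). Against DMSO the limma call ended for FGF8 (without CID 2 or 3, or DMSO 1, 2 or 3, up to 0.0970), SPRY1 (without CID 2 or 3, or DMSO 2 or 3, up to 0.0815), EGR3 (without CID 1 or 3, or DMSO 2 or 3, up to 0.0634) and NRG1 (without CID 1 or 3, or DMSO 2, up to 0.0839), while those of HS6ST1, SDC2 and FOSL1 held without any 1 array. The methods' t-test, taken from the paper's general statistics section and not from its array analysis, was adjusted here by Benjamini-Hochberg. It kept 1 of these calls, that of HS6ST1 against DMSO. Fitting only the arrays of CID and DM ended the calls of FGF8, EGR3 and HS6ST1 against DM. Median centring of the arrays also ended the call of FGF8 against DM.

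The genes whose pattern was most like that of FGF7 over the 9 arrays were IL1RL1 (Pearson r = 0.994), SAA1 (0.984), OSMR (0.982), STEAP2 (0.982) and TNC (0.981). All 5 share the step between CID and the controls, and with the group means subtracted r was 0.71 for IL1RL1, 0.29 for SAA1, 0.88 for OSMR, 0.61 for STEAP2 and 0.77 for TNC. OSMR, the receptor subunit for oncostatin M, averaged 12.20 in CID, 12.81 in DMSO and 12.77 in DM. STEAP2, a metalloreductase, averaged 13.02 in CID, 13.51 in DMSO and 13.56 in DM. The genes with the lowest correlation were TLK1 (-0.989), CCNI (-0.988), CFAP36 (-0.985), HMOX1 (-0.985) and PABPC4 (-0.981). CCNI, cyclin I, averaged 16.90 in CID, 16.35 in DMSO and 16.30 in DM. Among the members, FGF1 was nearest to FGF7 with a correlation of 0.876 and FGF2 the farthest below 0 with -0.368. These correlations describe 9 arrays in 3 groups, and many genes share the same step.

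**Figure D4:**
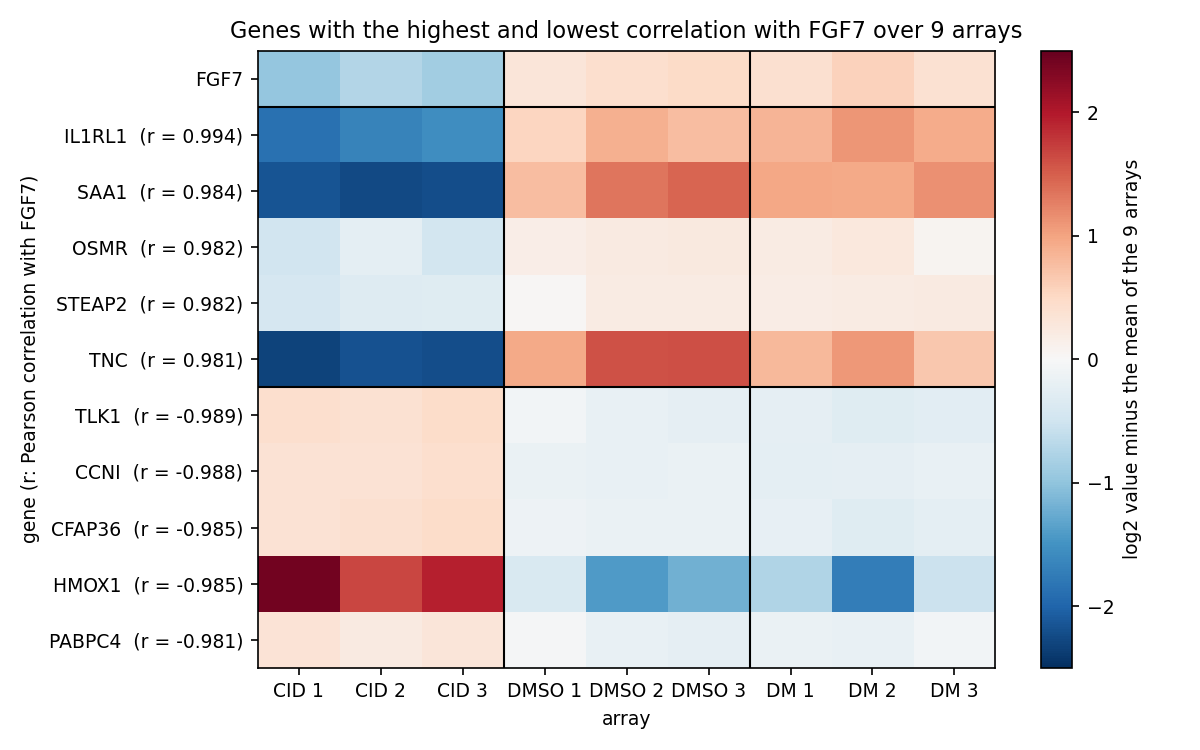
Log2 value minus the mean of the 9 arrays for FGF7 and the 5 genes with the highest and 5 with the lowest Pearson correlation with it, arrays in columns with CID left of DMSO and DM. The 3 CID columns stand apart from the other 6 in every row, and the colour steps of OSMR and STEAP2 are small beside those of TNC and SAA1.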

How the data were processed

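The 9 arrays were Affymetrix Clariom S. The authors deposited log2 values per probe set, normalised by RMA in Transcriptome Analysis Console; the sources used here give neither its version nor the type of RMA nor the genome build. RMA subtracts background and evens out the probe signals of the arrays before summarising them per probe set, so a change in total RNA would not show. The medians of the deposited values still differed, at 7.06 to 7.08 in DMSO, 7.09 to 7.11 in CID and 7.105 to 7.14 in DM. No scanner signals were used.

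Probe sets were named from the platform annotation: 17709 of 21448 carried 1 symbol, 0 several and 3739 none. Of 215 genes in 16 lists besides the members, 195 were named and the others were not analysed here. The members and lists were chosen with earlier results of these data known. In the text were named the members, the calls of each list, preset readouts, receptors and markers, and the 5 genes with the highest and 5 with the lowest correlation with FGF7.

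limma 3.58.1 in R 4.3.3 fitted group means over 9 arrays (6 residual degrees of freedom) with eBayes and Benjamini-Hochberg adjustment, and was tested on simulated data. The 3 arrays per group limit the precision. The alternatives were only the arrays of both groups compared, a trended and robust prior, no dim probe sets, cyclic loess, median centring, the methods' t-test, a replicate block, other fold thresholds and leaving out each array. Averaging several probe sets of a gene did not arise, since 0 genes had more than 1. Promoters came from RefSeq GRCh38.p14, in which 8 of 10 members had a window. Figures were drawn with matplotlib 3.10.9.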

Additional observations from a re-analysis of the deposited data

How the results depend on the processing

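Over the alternatives run, FGF7 in CID lay between -1.38 and -1.25 against DM and between -1.32 and -1.20 against DMSO. With a gap of 1.02 between CID and the controls, leaving out 1 array could not reverse it, so these ranges are a description. Of the other 9 members, 0 was called by limma under any alternative. FGF7 between DMSO and DM reversed to 0.0083 without DM 2 (range over left-out arrays -0.10 to 0.0083). The counts of probe sets called moved. Against DM there were 289 calls, 2 with the methods' t-test, 476 with the trended and robust prior, 40 at a log2 change of 1.5 and 137 to 284 with 1 array left out. Against DMSO there were 517, 21 with the t-test, 53 at a log2 change of 1.5 and 264 to 493 with 1 array left out. Between DMSO and DM the 1 call became 0 with only the arrays of both groups, the t-test, the replicate block or a log2 change of 1.5, 5 with the trended prior, and 0 to 1 with 1 array left out. Deviations of same-numbered arrays correlated weakly (9 pairs, r -0.05 to 0.07), and 6 of 9 arrays were nearest their own number. Same-numbered CID and DMSO pairs gave 0.068, 0.065 and 0.068, and the other CID and DMSO pairs -0.049 to -0.017. Whether the numbers pair the arrays cannot be told from these values, and the main fit had no block. Each group holds every replicate number once, so a replicate block leaves FGF7 at -1.31 against DM and -1.25 against DMSO by design. With the block, 275 probe sets were called against DM and 507 against DMSO.

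Small differences that changed sign with 1 array left out had these ranges. Between DMSO and DM they were FGF10 -0.32 to 0.12, FGF1 -0.12 to 0.062, FGF9 -0.10 to 0.12 and FGF18 -0.18 to 0.15. Against DM they were FGF2 -0.057 to 0.10, FGF9 -0.058 to 0.32, FGF18 -0.14 to 0.052, FGFR3 -0.15 to 0.012, ESRP1 -0.33 to 0.0083 and ETV5 -0.10 to 0.23. Against DMSO they were FGF5 -0.12 to 0.10 (-0.02 with median centring), FGF9 -0.088 to 0.29, FGF18 -0.20 to 0.13, FGFR2 -0.35 to 0.0083, FGFR3 -0.033 to 0.27, FGFRL1 -0.022 to 0.12 and SPRY2 -0.28 to 0.038. The cause was not tested. FGF18, FGFR2 and FGFR3 lay below the dim level, where a difference is hard to see.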

Other observations

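The known inducers of FGF7 in fibroblasts and their receptors, 13 genes, gave 1 call against DM and 2 against DMSO, all lower in CID. Over all probe sets, 1.35% were called against DM and 2.41% against DMSO. PDGFRA, a receptor of platelet-derived growth factor, was 14.95, 14.93 and 15.12 in CID, 15.78, 15.64 and 15.96 in DMSO, and 15.71, 15.51 and 15.72 in DM. It fell by 0.65 on the log2 scale against DM (limma adjusted p = 0.0338) and by 0.79 against DMSO (limma adjusted p = 0.00843). The call against DM ended without CID 1, 2 or 3, DMSO 1, or DM 1 or 3 (adjusted p up to 0.124), and also with only the arrays of CID and DM in the fit. PDGFRB, the second receptor, was 14.69, 14.49 and 14.43 in CID, 15.33, 15.30 and 15.28 in DMSO, and 15.10, 14.92 and 14.97 in DM. It fell by 0.77 against DMSO (limma adjusted p = 0.00636) and differed by -0.46 against DM (limma adjusted p = 0.0912). DMSO lay above DM without overlap for PDGFRB, by 0.31 (limma adjusted p = 0.663). The methods' t-test kept none of the PDGFRA and PDGFRB calls. IL6 was 5.60, 6.60 and 6.30 in CID, 6.44, 6.85 and 6.36 in DMSO, and 7.18, 7.07 and 7.08 in DM. It differed by -0.94 against DM (limma adjusted p = 0.0761) and by -0.38 against DMSO (limma adjusted p = 0.476), where the arrays overlapped. DMSO lay below DM without overlap, with a log2 difference of -0.56 (limma adjusted p = 0.688). IL1B, which induces FGF7 in fibroblasts, differed by 0.22 against DM (limma adjusted p = 0.825) and its receptor IL1R1 by 0.36 (limma adjusted p = 0.336). IL1RAP, of the same list, was lower in CID without overlap in both comparisons. It differed by -0.45 against DM (limma adjusted p = 0.117) and by -0.56 against DMSO (limma adjusted p = 0.0341), under the fold threshold. The median of the 13 was 0.09 against DM and 0.07 against DMSO.

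The genes of receptor endocytosis and sorting, 13 in all, gave 0 calls by limma in either comparison, and 0 by the methods' t-test. At an unadjusted limma p under 0.05, 1 passed against DM (12.6% of all probe sets) and 0 against DMSO (15.2%). Their differences lay between -0.14 and 0.43 against DM. RAB11A, a GTPase of recycling endosomes, averaged 11.37 in CID, 11.11 in DMSO and 10.94 in DM (difference 0.43 against DM, limma adjusted p = 0.189). RAB5A, of early endosomes, differed by 0.02 against DM (limma adjusted p = 0.970).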
